A study of Sus scrofa with 9 samples.

Results

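Transcripts that the deposited table of pig blastocyst RNA codes as class j are described here. They were chosen by that code alone, and 14334 of the 147461 transcripts in the table carry it (9.72%), at 6829 gene loci. The labels describe 9 samples in 3 groups of 3: siRNA against INO80, control siRNA, and no injection. The table has 9 FPKM columns, 3 named INO80 siRNA, 3 named water sham and 3 named uninjected, and none is named control siRNA. In the sample labels, INO80 siRNA and water sham sit on the same 3 samples, as the characteristic and as the title, so which samples the columns of those names hold cannot be told from them. An INO80 siRNA, water sham or uninjected library here is one labelled so by its column. Breed, embryo age and embryo number are not in the labels, nor is the source of the replicates, so a p-value reflects only how much these libraries vary, which may be technical.

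Most mammalian genes are transcribed into several forms that differ in where transcription starts, which exons are joined and where the transcript ends. Programs that rebuild transcripts from short reads compare each result with the known annotation. In the coding scheme those programs commonly use, j marks a multi-exon transcript that shares a splice junction with a known transcript of the gene but differs from it elsewhere. All 14334 class j transcripts carry names given by assembly. All 19675 transcripts coded 0 carry pig Ensembl transcript names, and they are the known forms against which class j is set here. Forms of a gene share most of their sequence, so the FPKM of each form (fragments per kilobase of transcript, scaled to the size of the library) is an estimated split of reads that several forms could have given.

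The 9 libraries resembled each other only moderately. Pearson's r of log2(FPKM + 1) across transcripts lay between 0.514 and 0.645 for the 9 pairs of libraries within a column group, and between 0.409 and 0.626 for the 27 pairs between groups; transcripts are not independent replicates. Trophectoderm and pluripotency markers were measured in all 9 libraries: KRT8, a keratin of the outer epithelium, at 631 to 4310 FPKM, and POU5F1, a pluripotency factor, at 17.6 to 126 FPKM. PTPRC, a leukocyte marker, did not exceed 0.053 FPKM in any library. HBB, a haemoglobin chain of red blood cells, reached 33.1 FPKM in INO80 siRNA library 2 and 7.8 FPKM in water sham library 1, and was at most 1.57 FPKM in the other 7. The oocyte genes GDF9 and ZP3 reached 3.19 and 2.82 FPKM, while UCHL1, also on the oocyte list, reached 192 FPKM in INO80 siRNA library 3. Of the cumulus and granulosa genes, CYP19A1 was at most 0.598 FPKM, and FST and SERPINE2 averaged 42.1 and 40.0 FPKM over the 9 libraries. The part of such RNA in the results was not tested. Depth is unknown, because the table gives FPKM and no counts.

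INO80, the siRNA's target and the ATPase of a chromatin remodelling complex, was represented by class j alone. Its locus (MSTRG.4659, chromosome 1, plus strand, 145362748 to 145504969) holds 4 class j transcripts and no class 0 transcript. The longest, MSTRG.4659.1 with 36 exons and 6436 bases, measured 0.0844, 0.792 and 0.855 FPKM in INO80 siRNA, 1.61, 0.444 and 1.13 FPKM in water sham, and 0.445, 0.634 and 1.96 FPKM in uninjected libraries. The short form MSTRG.4659.2, with 8 exons and 1251 bases, was the most abundant in INO80 siRNA library 3 at 7.05 FPKM. Together the 4 forms measured 1.43, 4.41 and 7.91 FPKM in INO80 siRNA, 2.39, 2.16 and 2.90 FPKM in water sham, and 0.926, 3.10 and 1.96 FPKM in uninjected libraries. The libraries labelled INO80 siRNA were thus not lower as a group in this sum, which in library 3 was mostly the short form. The longest form overlapped between groups. Its log2(FPKM + 1) difference was -0.32 (SE 0.547, adjusted p 0.909 by limma, described with the comparisons) against uninjected. Against water sham it was -0.38 (SE 0.547, limma adjusted p 0.786). At such low values this scale understates changes, so a lower level of the longest form is not excluded.

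By structure, class j was mixed. Of the 14334 transcripts, 13576 lay at the 6473 loci that also hold a class 0 transcript, and 758 lay at loci with none. Against the nearest class 0 transcript of the locus, 6516 of 13576 (48.0%) had fewer exons, 4180 (30.8%) had more and 2880 (21.2%) had the same number. A single added exon was the commonest of the steps counted, in 2690 (19.8%), and a single missing exon was found in 1630. Exact matches were rare: 3103 (22.9%) had the exon number of some class 0 transcript of the gene, and only 6 matched one in both exon number and length. Both ends lay at the same bases as those of the nearest class 0 transcript in 5.

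Class j transcripts with fewer exons had a median length difference of -787 bases from the class 0 form, and 2640 of them had fewer than 0.5 of the exons of the class 0 form. Those with more exons were longer by a median of 294 bases. In total exonic length the classes differed little, with medians of 1691 bases for class j and 1672 bases for class 0, and the median exon number was 7 in each. The name "splice form" therefore covers both forms near the length of the known transcript and much shorter ones, and the table does not say which are complete. Loci with a single class j transcript numbered 3424, those with 2 numbered 1672, and 1733 held 3 or more. PCBP2, which encodes a poly(rC)-binding RNA-binding protein, held the most, 28.

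**Figure D1:**
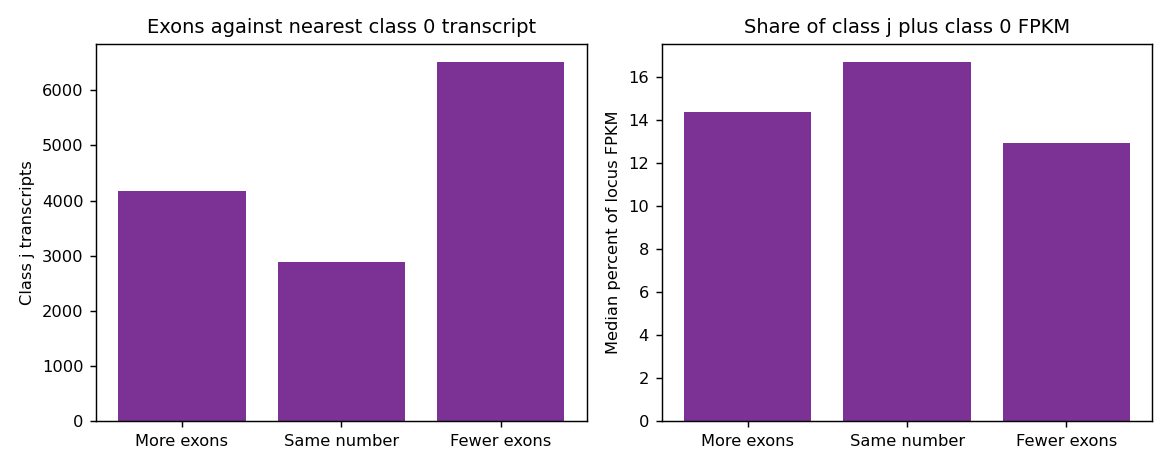
Number of class j transcripts with more, the same number of, or fewer exons than the nearest class 0 transcript of the locus (left, count), and the median percent of the locus' class j plus class 0 FPKM that 1 such transcript took over the 9 libraries (right). Bars stand for 4180, 2880 and 6516 transcripts; the medians are 14.4%, 16.7% and 12.9%.

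A single class j transcript usually took a minor part of its locus, although the class j forms of a locus together often took most of it. At loci whose summed FPKM averaged 1 or more in every column group, the median class j transcript with more exons took 14.4% of the class j plus class 0 FPKM of its locus, with the same exon number 16.7% and with fewer exons 12.9%. More than 50% of the locus was taken by 701 of 3764 transcripts with more exons (18.6%), by 579 of 2677 with the same number (21.6%) and by 693 of 5664 with fewer (12.2%). Summed over its class j forms, the median locus took 58.3 to 66.6% from class j, by library, among 5246 such loci with both classes. The level of the members was low, with a median over the 9 libraries of 1.12 FPKM, where that of class 0 transcripts was 0.281 FPKM. Of the class j transcripts, 1233 averaged 10 FPKM or more and 160 averaged 100 FPKM or more.

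Detection varied from library to library. Only 1706 class j transcripts (11.9%) reached 1 FPKM in all 9 libraries, while 4046 (28.2%) reached it in a single library and 402 (2.80%) in none. Of the class 0 transcripts, 3220 (16.4%) reached 1 FPKM in all 9 libraries, 1814 (9.22%) in a single library and 9951 (50.6%) in none. These shares are not like for like. Class j transcripts are named by assembly from reads, and 0 of them were listed at 0 in all 9 libraries, while class 0 transcripts come from the annotation. At like levels class j also spread more between libraries of a group. For transcripts averaging 10 to 100 FPKM, the median SD of log2(FPKM + 1) was 0.804 in INO80 siRNA, 0.655 in water sham and 0.639 in uninjected libraries for class j. For class 0 it was 0.666, 0.516 and 0.465 in the same order of groups.

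The most abundant class j transcripts with a recognised gene symbol belonged largely to ribosomal protein genes. RPS25, RPS6, RPS26, RPS21, RPS3 and RPS13, all of the small ribosomal subunit, filled 6 of the first 10 places by mean FPKM. The class j form of RPS25 (MSTRG.82986.2, 5 exons, against 3 in the class 0 form) averaged 1871 FPKM over the 9 libraries and took 86.1 to 93.6% of its locus. The class j form of GSTP1, a glutathione transferase, averaged 1785 FPKM and took 93.4 to 96.3% of its locus, with 8 exons against 5 (chromosome 2, 3617073 to 3866974). UBB, a polyubiquitin gene, behaved differently, since its 2 class j forms in that group of 10 were each listed at 0 in at least 1 library and took up to 90.8% and 88.5% of the locus in others. Ribosomal protein genes have many processed copies in mammalian genomes, and reads shared with such copies could be split in ways the table does not show. A further 5 class j transcripts without a recognised symbol exceeded the tenth of these, the highest averaging 26059 FPKM.

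Summed over all loci, class j held 34.4 to 40.9% of the signal of class j plus class 0, where signal is FPKM times transcript length. Its percent of class j plus class 0 signal was 37.0, 36.1 and 36.6 in the INO80 siRNA libraries, 37.1, 40.9 and 37.7 in the water sham libraries, and 35.8, 36.7 and 34.4 in the uninjected libraries. The means were 36.5 ± 0.481%, 38.6 ± 2.04% and 35.6 ± 1.11% (SD, n = 3 each). Water sham libraries all lay above the libraries of both other groups, and INO80 siRNA and uninjected libraries overlapped. Without water sham library 2 the difference was -0.902 percentage points for INO80 siRNA minus water sham, against -2.07 with it, and 1.82 for water sham minus uninjected, against 2.99. For INO80 siRNA minus uninjected it was 0.323 without uninjected library 3 and 1.43 without uninjected library 2, against 0.917 with all libraries. The exact two-sided permutation p was 0.3 for INO80 siRNA against uninjected, 0.1 for INO80 siRNA against water sham and 0.1 for water sham against uninjected, and 0.1 is the smallest value that 3 libraries against 3 allow.

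Set against the signal of all transcripts in the table, including those outside known genes, class j held 22.8 ± 3.90% in INO80 siRNA, 30.0 ± 2.86% in water sham and 24.1 ± 1.68% in uninjected libraries (SD, n = 3 each). The exact two-sided permutation p was 0.8 for INO80 siRNA against uninjected, 0.1 for INO80 siRNA against water sham and 0.1 for water sham against uninjected. INO80 siRNA library 3 was the lowest of the 9 at 18.4%.

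**Figure D2:**
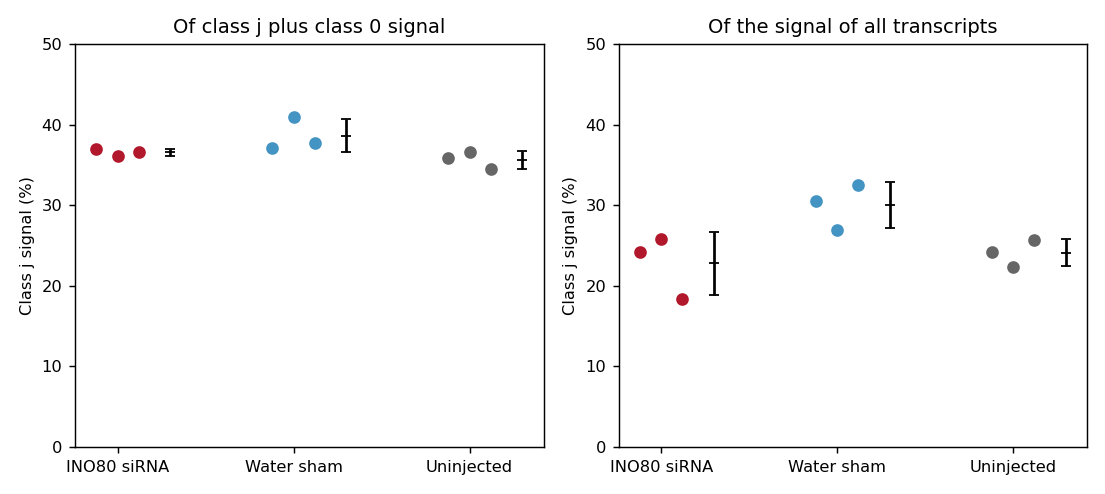
Class j percent of the class j plus class 0 signal (left) and of the signal of all transcripts (right) by library, where signal is FPKM times length. Points are libraries, with the mean and SD (n = 3) beside each column group; on the left all 3 water sham libraries lie above the other 6, at 37.1 to 40.9%.

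The transcript with the highest FPKM among the class j and class 0 forms of a locus is called dominant here. It was examined at 5655 loci with at least 2 such forms and a mean sum of 1 FPKM or more in every column group, of which 5246 held both classes. Class j and class 0 were near balance in each library, since a class j form was dominant at 51.7 to 54.9% of the 5246 loci. A class j form was dominant in all 9 libraries at 1553 loci (29.6%) and a class 0 form at 971 (18.5%), and the class of the dominant form varied between libraries at 2707 (51.6%). The same class j transcript led in all 9 libraries at 747 loci.

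Averaged over all pairs, the dominant transcript was as variable between libraries of a group as between groups. It was the same in all 9 libraries at 1867 of the 5655 loci (33.0%). Pairs of libraries within a column group named the same dominant transcript at 68.7% of loci on average (66.1 to 71.6% over 9 pairs), and pairs from different groups at 68.6% (64.5 to 71.3% over 27 pairs). Within groups the means were 67.6% in INO80 siRNA, 71.1% in water sham and 67.4% in uninjected libraries. Between groups they were 68.1% for INO80 siRNA with uninjected, 68.5% for INO80 siRNA with water sham and 69.2% for water sham with uninjected. All 3 libraries of a group named the same transcript at 55.0% of loci in INO80 siRNA, 59.8% in water sham and 55.1% in uninjected libraries. INO80 siRNA library 1 and uninjected library 2 had the lowest values with most other libraries.

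**Figure D3:**
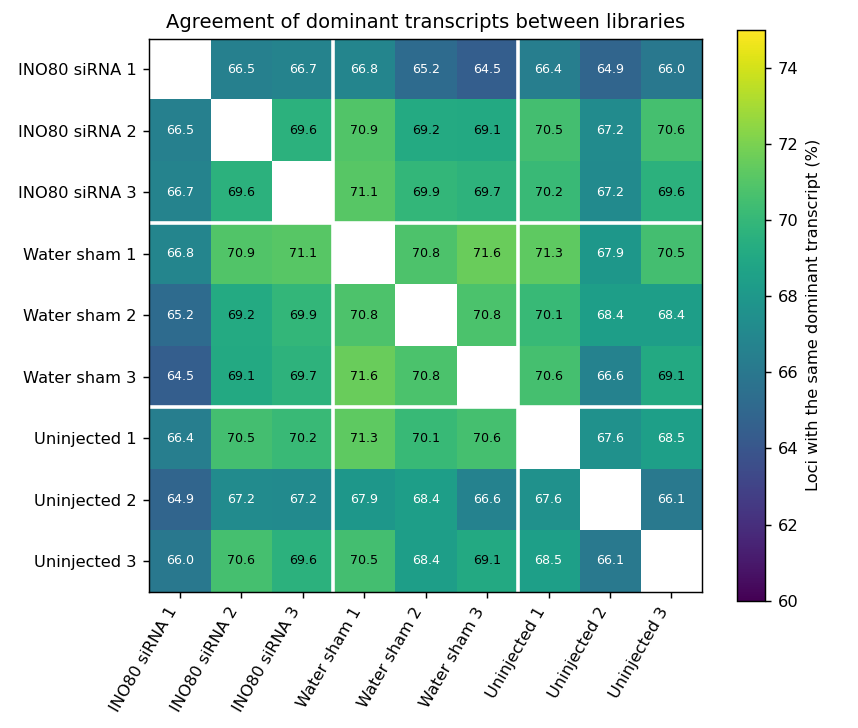
Percent of 5655 loci at which 2 libraries had the same dominant transcript, for each pair of the 9 libraries (colour scale from 60 to 75%; white lines part the column groups). Pairs within a group lie between 66.1 and 71.6%, and pairs between groups between 64.5 and 71.3%.

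Differences between column groups were tested with limma on log2(FPKM + 1) over the 111564 transcripts that averaged 1 FPKM or more in some column group, of which 10954 were class j; 3380 class j transcripts did not pass this filter. In INO80 siRNA against uninjected libraries 2 class j transcripts had a Benjamini-Hochberg adjusted p under 0.05, 1 higher and 1 lower, where 6 of all transcripts did (0.00538%). In INO80 siRNA against water sham 1 class j transcript passed, lower, beside 5 of all transcripts (0.00448%). In water sham against uninjected the only transcript of the table that passed was a class j transcript, higher (0.000896%). These comparisons share libraries, so they are not independent of each other.

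The share of transcripts whose groups did not overlap was smaller in class j than in the whole table for INO80 siRNA against uninjected, 7.81% against 10.2%, and for INO80 siRNA against water sham, 13.3% against 15.7%. For water sham against uninjected it was 9.29% in class j and 8.61% in the whole table. The median log2 difference of class j was -0.09 for INO80 siRNA minus uninjected, where that of all transcripts was 0.21. It was -0.22 against 0.51 for INO80 siRNA minus water sham, and 0.10 against -0.23 for water sham minus uninjected. FPKM is relative to the whole library, and after quantile normalization the medians of all transcripts lay at -0.01, 0.01 and 0.00, and those of class j at -0.31, -0.76 and 0.43, so the direction for class j was kept. Class 0 had the same signs as class j and larger medians, at -0.21, -0.36 and 0.16, and at -0.45, -0.98 and 0.55 after quantile normalization, so these signs are not particular to class j.

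The class j transcript that passed as lower in INO80 siRNA libraries, against both other groups, belongs to NPC2. NPC2 is a small soluble protein of the lysosome that binds cholesterol and hands it to NPC1 for export from that compartment. Its locus (MSTRG.75207, chromosome 7, minus strand, in the coordinates of the table) holds 2 transcripts that end at the same base on the left, 103573074. The class j form MSTRG.75207.1 runs to 103583260 with 5 exons and 1510 bases, and the class 0 form ENSSSCT00000002630 runs to 103582623 with 4 exons and 1518 bases. The class j form therefore starts further upstream and has an added exon, at nearly equal length.

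The class j form of NPC2 measured 0.0779, 0.224 and 1.23 FPKM in INO80 siRNA libraries, 355, 116 and 590 FPKM in water sham libraries, and 242, 226 and 541 FPKM in uninjected libraries. Every INO80 siRNA library was far below every other library. It fell by 7.76 (SE 0.744) on the log2(FPKM + 1) scale against uninjected libraries, with a limma adjusted p of 0.0178. Against water sham libraries it fell by 7.67 (SE 0.744), with a limma adjusted p of 0.0382.

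The class 0 form of NPC2 stayed abundant in every library. It measured 139, 445 and 161 FPKM in INO80 siRNA libraries, 545, 320 and 368 FPKM in water sham libraries, and 384, 134 and 647 FPKM in uninjected libraries, and INO80 siRNA libraries overlapped each of the other groups. Its log2 difference was -0.58 (SE 0.663, limma adjusted p 0.846) for INO80 siRNA minus uninjected and -0.89 (SE 0.663, adjusted p 0.635) for INO80 siRNA minus water sham. Both forms together averaged 249 ± 171 FPKM in INO80 siRNA, 765 ± 287 FPKM in water sham and 725 ± 423 FPKM in uninjected libraries (SD, n = 3 each).

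The class j percent of NPC2 FPKM was 0.0559, 0.0502 and 0.760 in INO80 siRNA libraries, 39.5, 26.6 and 61.6 in water sham libraries, and 38.6, 62.7 and 45.5 in uninjected libraries. The ratio of class j to class 0 FPKM, each with 1 FPKM added, fell by 7.18 on the log2 scale (SE 0.823) against uninjected, with a limma adjusted p of 0.0342. Against water sham the log2 difference of this ratio was -6.77, with an adjusted p of 0.0566, which missed the threshold. NPC2 was the only ratio to pass among 5246 loci in INO80 siRNA against uninjected (0.0191%). Among the same 5246 loci none passed in INO80 siRNA against water sham (0%, with 420 at an unadjusted limma p under 0.05). None passed in water sham against uninjected either (0%, with 248 at an unadjusted p under 0.05 and a lowest adjusted p of 0.506).

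The NPC2 calls are near the threshold and depend on single libraries. Without uninjected library 1, 2 or 3 the limma adjusted p of the class j form against uninjected was 0.0746, 0.0864 and 0.0579, and against water sham it was 0.0774 without sham library 1 and 0.0775 without sham library 3. In the fit to only the 6 columns compared it was 0.0982 against uninjected and 0.241 against water sham, while the log2 difference was the same. Without uninjected library 1, 2 or 3, none of the class j transcripts passed in any comparison, while without INO80 siRNA library 1 or 3 the class j transcripts that passed numbered 5 and 4 against uninjected and 4 and 5 against water sham. The ratio had adjusted p of 0.0793 and 0.0910 without INO80 siRNA library 1 or 2, and of 0.0514, 0.308 and 0.215 without uninjected library 1, 2 or 3, and in that comparison no locus passed without water sham library 1, 2 or 3. In INO80 siRNA against water sham, 4 loci passed without water sham library 1, 1 without water sham library 3 and 5 without INO80 siRNA library 3.

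**Figure D4:**
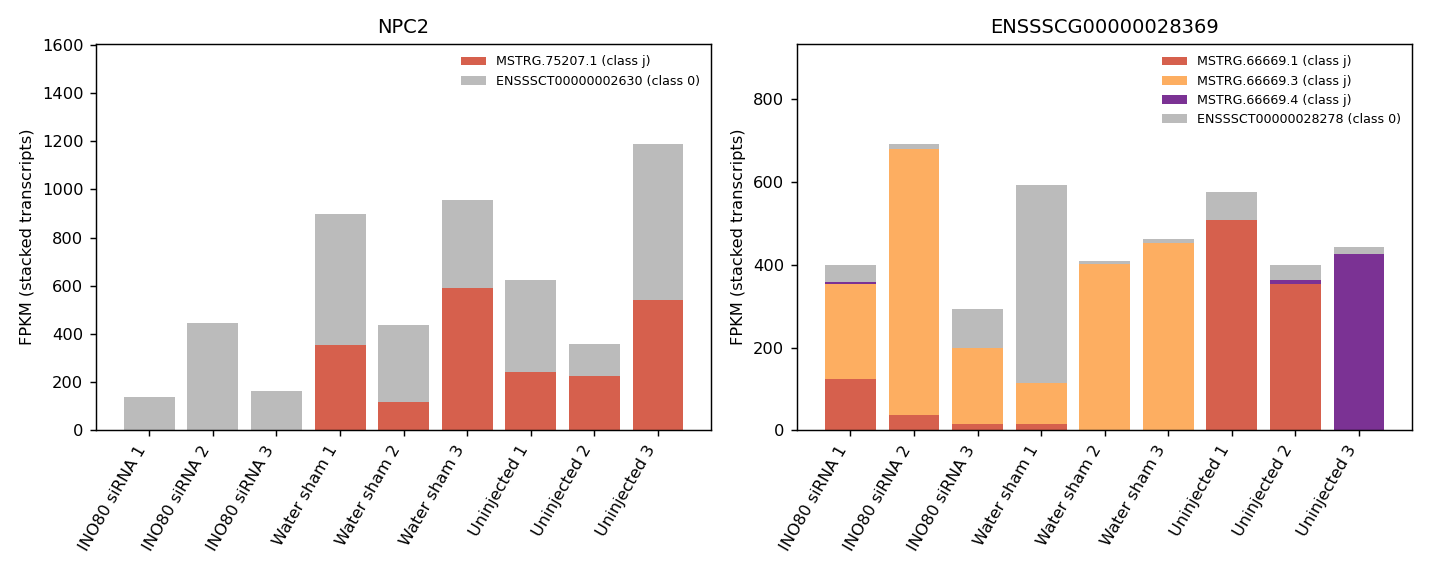
FPKM of each class j and class 0 transcript, stacked, in the 9 libraries at NPC2 (left) and at ENSSSCG00000028369 (right). At NPC2 the class j form is near 0 in the 3 INO80 siRNA libraries and 116 to 590 FPKM in the other 6; at the other locus the class j form MSTRG.66669.3 is listed at 0 in the 3 uninjected libraries.

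The other class j transcript that passed lies at ENSSSCG00000028369, an Ensembl gene that matched no symbol, and it was chosen for description after its values were seen. MSTRG.66669.3 (chromosome 6, 49641408 to 49643912, minus strand, 6 exons, 554 bases) measured 230, 644 and 183 FPKM in INO80 siRNA libraries and 99.9, 401 and 453 FPKM in water sham libraries, and it was listed at 0 in the 3 uninjected libraries. No fold is given against values listed at 0. The limma adjusted p was 0.0178 for INO80 siRNA against uninjected and 0.0323 for water sham against uninjected.

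The libraries differed in which form carried this locus. Class j took 19.3% of its class j plus class 0 FPKM in water sham library 1, where class 0 led, and 68.0 to 98.4% in the other 8. The total of both classes averaged 461, 488 and 473 FPKM in INO80 siRNA, water sham and uninjected libraries. MSTRG.66669.1 measured 123, 36.3 and 15.7 FPKM in INO80 siRNA libraries, 14.2, 0.144 and 0 FPKM in water sham libraries, and 509, 354 and 2.7e-05 FPKM in uninjected libraries. MSTRG.66669.4 measured 426 FPKM in uninjected library 3 and at most 9.89 FPKM in the other 8. So each uninjected library had 1 abundant class j form, and it was not the same form in all 3. The adjusted p of MSTRG.66669.3 against uninjected was 0.0702, 0.0864 and 0.0545 for INO80 siRNA without uninjected library 1, 2 or 3, and 0.0663, 0.0939 and 0.0638 for water sham without the same libraries. For water sham it was also 0.0580 without sham library 2 and 0.0958 without sham library 3, and no class j transcript passed in that comparison without INO80 siRNA library 1 or 3.

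No other class j transcript passed, and those with the smallest p whose groups did not overlap are given as values. For INO80 siRNA against uninjected these included ACTB, the cytoskeletal beta-actin, whose class j form MSTRG.49450.2 has 7 exons against 6. It measured 5.18, 4.43 and 23.9 FPKM in INO80 siRNA libraries, 226, 619 and 1370 FPKM in water sham libraries, and 528, 403 and 297 FPKM in uninjected libraries. All 3 INO80 siRNA libraries lay below the other 6, with limma adjusted p of 0.132 against uninjected and 0.0828 against water sham.

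HIVEP1, a zinc finger transcription factor, had a class j form of 2 exons and 973 bases, against 9 exons and 10787 bases in the class 0 form. It measured 0, 0.211 and 0.0331 FPKM in INO80 siRNA, 0.0239, 0 and 0.064 FPKM in water sham, and 6.30, 10.9 and 13.2 FPKM in uninjected libraries. For this form the uninjected libraries stood apart from both other groups (limma adjusted p 0.181 for INO80 siRNA and 0.444 for water sham against uninjected). A class j form of C2CD2 had the same order, at 0 in all 3 INO80 siRNA libraries, at most 0.0788 FPKM in water sham and 2.94 to 7.48 FPKM in uninjected libraries. HIVEP1 has 2 class j forms, and the other was abundant in single libraries. Class j took 99.2% of 18.6 FPKM at HIVEP1 in INO80 siRNA library 1 and 98.4% of 8.10 FPKM in water sham library 2.

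Among class j forms with higher values in INO80 siRNA than in uninjected libraries, NIFK, a nucleolar protein that binds the proliferation antigen Ki-67, measured 36.3, 20.0 and 4.42 FPKM in INO80 siRNA and 0.217, 0.154 and 0.183 FPKM in uninjected libraries. BUB3, a spindle checkpoint protein, measured 53.3, 29.9 and 7.95 FPKM in INO80 siRNA libraries and was listed at 0 in the 3 uninjected libraries. Neither passed (limma adjusted p 0.674 and 0.766). Water sham libraries ranged widely, at 0.0144 to 6.86 FPKM for NIFK and 0.0332 to 56.3 FPKM for BUB3. BUB3 has 2 class j forms, and through the other one class j took 53.9, 41.1 and 55.3% of the locus in uninjected libraries.

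UBA1, the main ubiquitin-activating enzyme, showed an exchange between 2 class j forms that have 26 exons each. MSTRG.87889.2 measured 12.3, 12.6 and 12.5 FPKM in INO80 siRNA, 0.0144, 0 and 0.000101 FPKM in water sham, and 6.66, 11.2 and 23.1 FPKM in uninjected libraries. MSTRG.87889.1 measured 0.029, 0 and 0.0323 FPKM in INO80 siRNA, 20.7, 18.7 and 17.9 FPKM in water sham, and 6.73, 0.228 and 0 FPKM in uninjected libraries. The libraries of the INO80 siRNA and water sham groups were tight and did not overlap for either form, yet neither difference passed (limma adjusted p 0.361 and 0.384).

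A class j form of GTF2H1, a subunit of the transcription and repair factor TFIIH, was measured only in water sham libraries, at 7.11, 15.1 and 17.4 FPKM, and was listed at 0 in the 3 INO80 siRNA and the 3 uninjected libraries. It did not pass (limma adjusted p 0.161 for INO80 siRNA against water sham and 0.38 for water sham against uninjected). The locus has 2 class j forms, and the other was measured in those 2 groups. Class j took 100, 18.6 and 100% of the locus in INO80 siRNA and 100, 100 and 92.0% in uninjected libraries.

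In the ratio of class j to class 0, loci other than NPC2 are also described by value, since none passed. At RPS28, a ribosomal protein gene, class j took 66.6, 84.7 and 28.7% in INO80 siRNA, 2.28, 2.0 and 4.6% in water sham, and 2.51, 3.08 and 1.86% in uninjected libraries (limma adjusted p 0.103 against uninjected and 0.155 against water sham). The RPS28 locus runs from 71246224 to 71323011 on chromosome 2 and holds 5 class j forms. Whether all of them belong to that gene was not tested. At FECH, ferrochelatase, which makes haem, class j took 93.9, 84.6 and 76.5% in INO80 siRNA, 35.3, 11.2 and 4.15% in water sham, and 9.25, 25.4 and 21.2% in uninjected libraries (adjusted p 0.574 and 0.247). INO80 siRNA libraries did not overlap either of the other groups at these 2 loci.

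RUVBL2, an AAA ATPase that is a subunit of the INO80 complex and of other complexes, had class j percentages of 85.7, 36.8 and 47.6 in INO80 siRNA, 2.21, 2.38 and 2.48 in water sham, and 0.841, 4.59 and 26.0 in uninjected libraries (limma adjusted p 0.287 against water sham). HELLS, a chromatin remodelling ATPase, had 66.8, 71.6 and 56.3% in INO80 siRNA, 10.5, 2.23 and 10.1% in water sham, and 33.7, 57.1 and 54.2% in uninjected libraries, so that the water sham libraries stood apart (adjusted p 0.247 for INO80 siRNA against water sham). GEMIN5, which recognises small nuclear RNAs for the SMN complex, had 1.92, 2.85 and 46.9% in INO80 siRNA, 99.2, 99.9 and 100% in water sham, and 10.8, 23.4 and 15.9% in uninjected libraries. Its class j plus class 0 total was low, at 1.65 to 7.62 FPKM by library.

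MARVELD2, or tricellulin, seals tight junctions where 3 cells meet. Class j took 29.8, 29.4 and 22.8% of it in INO80 siRNA, 71.7, 31.2 and 47.7% in water sham, and 94.7, 87.5 and 79.5% in uninjected libraries. The 3 groups did not overlap, and the difference between INO80 siRNA and uninjected libraries did not pass (limma adjusted p 0.992). The MARVELD2 total of class j plus class 0 was low, at 3.33 to 6.27 FPKM in INO80 siRNA and 1.57 to 7.53 FPKM in uninjected libraries. In water sham libraries it was at least 9.06 FPKM. At NF2, which encodes merlin of the Hippo pathway, class j took 100% in all 3 INO80 siRNA libraries. It took 24.7, 77.7 and 42.1% in water sham, and 0, 18.8 and 0% in uninjected libraries (limma adjusted p 0.574 against uninjected). The NF2 total was only 0.962 to 5.57 FPKM by library, so these percentages rest on low values.

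Changes of dominant transcript were counted where 1 transcript led in all 3 libraries of a group and another led in all 3 of the other, with at least 1 of them class j. In INO80 siRNA against uninjected 19 of 5655 loci changed so (0.336%), in INO80 siRNA against water sham 33 (0.584%) and in water sham against uninjected 26 (0.46%). Only loci with 1 leading transcript in each group could change so, and these numbered 2239, 2337 and 2405 in the same order. Changes of any class numbered 19, 34 and 27, so nearly all involved class j. Of the 19 loci, 7 had class j in the INO80 siRNA libraries and class 0 in the uninjected ones, 7 had the reverse and 5 had a different class j form in each. The 33 loci of INO80 siRNA against water sham were 17, 12 and 4 in these kinds, and the 26 loci of water sham against uninjected were 11, 6 and 9. These counts carry no test. When the leading form had to be at least 2 times the next in every library, 4, 8 and 9 loci remained, and with a minimum of 5 FPKM for the locus 5, 10 and 14 were counted.

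The most highly expressed such loci in INO80 siRNA against uninjected began with IAH1, a hydrolase gene. Its class 0 form measured 54.1, 71.5 and 65.9 FPKM in INO80 siRNA and 52.9, 48.2 and 43.0 FPKM in uninjected libraries, while its class j form measured 28.0, 55.5 and 28.4 FPKM in INO80 siRNA and 60.8, 63.6 and 52.6 FPKM in uninjected libraries. The change of lead was thus small, with both forms abundant in every library. FECH differed more: the class j form of 3 exons measured 37.2, 10.3 and 23.1 FPKM in INO80 siRNA, 11.3, 1.92 and 0.965 FPKM in water sham and 1.47, 3.58 and 1.36 FPKM in uninjected libraries. Its class 0 form of 10 exons measured 2.42, 1.88 and 7.10 FPKM in INO80 siRNA, 20.8, 15.3 and 22.3 FPKM in water sham and 14.4, 10.5 and 5.06 FPKM in uninjected libraries.

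CHAF1B, a subunit of the histone chaperone CAF-1, had the class 0 form in the lead in INO80 siRNA libraries. The class 0 form of 13 exons measured 2.40, 2.02 and 2.65 FPKM in INO80 siRNA, 2.64, 0.103 and 0.335 FPKM in water sham and 0.105, 1.08 and 0.645 FPKM in uninjected libraries. Its class j form of 14 exons measured 0, 1.12 and 0 FPKM in INO80 siRNA, 3.02, 6.0 and 16.5 FPKM in water sham and 6.44, 7.08 and 1.85 FPKM in uninjected libraries. KIF20B, a mitotic kinesin, exchanged 2 class j forms: the form of 27 exons led in INO80 siRNA libraries at 6.54, 2.88 and 3.55 FPKM, and the form of 33 exons led in uninjected libraries at 3.40, 4.92 and 7.66 FPKM.

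In INO80 siRNA against water sham the list began with PTBP1, a repressor of exon inclusion. Its class 0 form measured 11.6, 30.8 and 21.5 FPKM in INO80 siRNA and 24.4, 27.0 and 50.1 FPKM in water sham libraries, and its class j form of 15 exons measured 2.42, 29.1 and 20.8 FPKM in INO80 siRNA and 41.9, 38.3 and 87.2 FPKM in water sham libraries. In 2 of the 3 INO80 siRNA libraries the forms were nearly level. CLN6, a membrane protein of the endoplasmic reticulum whose loss disturbs lysosomes, had a class j form at 0.537, 2.41 and 0.358 FPKM in INO80 siRNA, 41.3, 47.8 and 89.3 FPKM in water sham, and 0.795, 0.144 and 84.0 FPKM in uninjected libraries. Uninjected library 3 was thus at the level of the water sham libraries and the other 2 were not.

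NUP188, a scaffold protein of the nuclear pore, had a class j form of 23 exons at 4.72, 4.12 and 4.68 FPKM in INO80 siRNA libraries, listed at 0 in the 3 water sham libraries, and at 0.0971, 4.75 and 4.32 FPKM in uninjected libraries. Its class 0 form of 44 exons led in water sham libraries at 5.41, 5.49 and 7.88 FPKM. TAOK3, a protein kinase, had a class j form of only 2 exons and 399 bases that led in INO80 siRNA libraries at 6.83, 10.2 and 7.86 FPKM, while the class 0 form of 21 exons led in water sham libraries at 3.40, 3.17 and 1.83 FPKM.

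Among the loci of water sham against uninjected libraries, DDX21, a nucleolar RNA helicase, had almost all of its FPKM in a different form in each group: its class j form measured 16.8, 18.1 and 28.7 FPKM in water sham libraries and was listed at 0 in the 3 uninjected ones, where the class 0 form measured 14.0, 12.9 and 17.9 FPKM. INO80 siRNA libraries were divided at DDX21, with the class j form at 0, 5.96 and 12.9 FPKM and the class 0 form at 7.90, 0 and 0 FPKM. PRIM1, the catalytic subunit of DNA primase, was divided in the same manner, with the class j form at 0, 0.0297 and 13.5 FPKM in INO80 siRNA, at 19.7, 12.6 and 28.2 FPKM in water sham and at 0.0812, 0 and 0 FPKM in uninjected libraries.

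**Figure D5:**
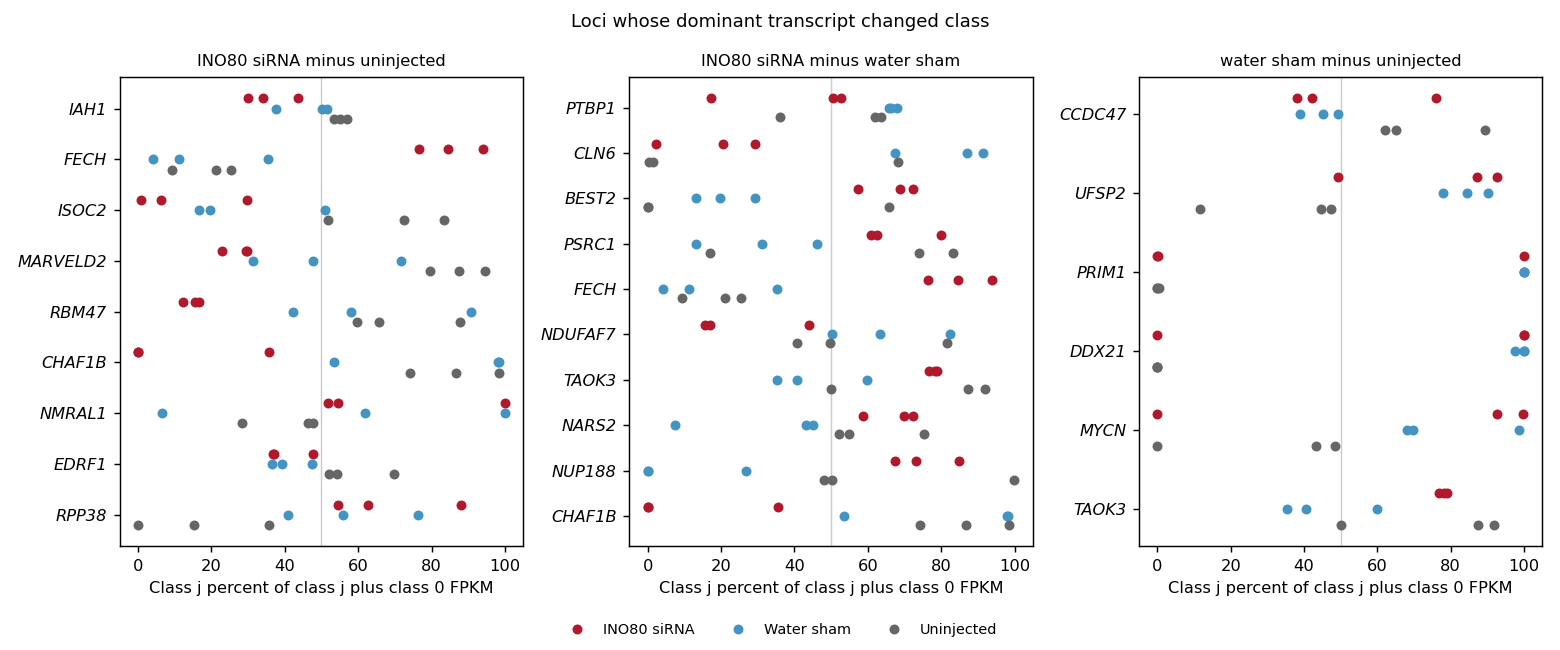
Class j percent of the class j plus class 0 FPKM of a locus in each library, for the named loci whose dominant form changed between class j and class 0 in each of the 3 comparisons (loci that exchanged 2 class j forms, and 1 locus not reported here, are left out). Points are libraries, 3 per column group, and the grey line marks 50%; at FECH the INO80 siRNA libraries lie between 76.5 and 93.9% and the other 6 between 4.15 and 35.3%.

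Genes of blastocyst function used class j to very different degrees. Over the whole table, 6829 of the 17065 loci with a class j or class 0 transcript had class j forms. In the trophectoderm list, 8 of 14 genes with a class j or class 0 transcript had class j forms, and none of the 21 tested passed in any of the 3 comparisons. DAB2, an endocytic adaptor of trophectoderm, took 98.1 to 99.8% of its FPKM from class j in the 9 libraries, and GATA2, a trophectoderm transcription factor, 98.8 to 100%. GATA3, its relative, had 8 class j transcripts and no class 0 transcript. TFAP2C, another factor of this lineage, ranged from 0.844 to 98.1%, and both extremes were INO80 siRNA libraries.

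In the tight junction list 11 of 16 genes had class j forms, and none of 19 tested passed in any comparison. CLDN7, a claudin, had at most 6.21% class j in any library. CLDN6 ranged from 0 to 100%, with 4.04, 1.45 and 0% in INO80 siRNA, 2.53, 100 and 100% in water sham and 10.9, 9.77 and 100% in uninjected libraries. The 3 libraries at 100% were also those with the lowest CLDN6, at 8.68 to 14.8 FPKM. In the adherens junction and desmosome list 9 of 11 genes had class j forms and 0 of 24 tested passed; CTNNB1, beta-catenin, took 36.2 to 71.8% from class j. In the ion and water transport list it was 4 of 10 genes, and 0 of 3 tested passed.

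Among pluripotency genes, DPPA2 took 92.9 to 98.9% of its FPKM from class j in the 9 libraries and DPPA5 0 to 13.3%. None of the 9 class j transcripts tested in the epiblast list passed, and none of 9 in the hypoblast list, in any of the 3 comparisons. GATA6, a hypoblast factor, took 54.8 to 99.5% from class j. In the INO80 complex list, 7 of 14 genes had class j forms and 0 of 20 tested passed. ACTL6A, an actin-related subunit, took 98.8 to 100% from class j.

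Of 26 splicing regulators with a class j or class 0 transcript, 21 had class j forms, and none of 83 tested transcripts passed in any comparison. Class j was dominant in all 9 libraries at 10 of 20 loci examined and class 0 at 1. Over all loci holding both classes these shares were 29.6% and 18.5%. SRSF7, a serine- and arginine-rich splicing factor, took 97.9 to 99.2% from class j. The median log2 difference of these transcripts was 0.00 for INO80 siRNA minus uninjected, -0.13 for INO80 siRNA minus water sham and 0.00 for water sham minus uninjected.

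In the lysosome list 13 of 24 genes had class j forms, and of 24 tested transcripts NPC2 alone passed, lower in INO80 siRNA against both other groups. PSAP, the precursor of the saposins, took 39.4 to 59.8% of its FPKM from class j in the 9 libraries, and CTSL, a cathepsin, 0.188 to 78.0%. The median log2 difference of the tested transcripts of this list was -0.27 for INO80 siRNA minus uninjected, -0.29 for INO80 siRNA minus water sham and -0.20 for water sham minus uninjected. Of the lists for cells outside the embryo, cumulus and granulosa genes had 3 class j transcripts, oocyte genes 3 and blood and immune genes none, and 0 of the 6 passed in any comparison. FST, the activin inhibitor follistatin from the cumulus and granulosa list, averaged 42.1 FPKM over the 9 libraries and took 10.3 to 84.4% of it from class j. UCHL1, a deubiquitinating enzyme from the oocyte list, measured 192 FPKM in INO80 siRNA library 3 and 73.8 FPKM in water sham library 3, against 2.61 to 19.4 FPKM in the other 7, and INO80 siRNA library 3 was the only library with class j FPKM there, 30.3% of the total.

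Median log2 differences of the class j transcripts tested differed between lists in size and sign. For INO80 siRNA minus uninjected and INO80 siRNA minus water sham they were -0.56 and -0.91 in the trophectoderm list, -0.50 and -0.83 in the tight junction list, and -0.57 and -0.58 in the hypoblast list. They were 0.77 and 0.07 in the epiblast list and 0.65 and 0.26 in the INO80 complex list. The cumulus and granulosa list had the lowest medians, -0.97 and -0.98, from only 3 transcripts. The transport list had 0.00 and -0.18 and the oocyte list -0.05 and 0.16, from 3 transcripts each. Over all class j transcripts tested the medians were -0.09 and -0.22. The lysosome medians lay within the range of the lists and near the -0.28 and -0.34 of the adherens junction and desmosome list. Many of these forms share a gene, and differences between lists were not tested.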

How the data were processed

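RNA-seq of pig blastocysts was deposited by the authors as a table of FPKM per transcript, with position, exon number, exonic length and class code. The submitters' processing notes list StringTie, HISAT2, fastp and edgeR, with no roles or versions; the strand setting is not given. They name GRCh38.p10, a human build, although the table holds pig Ensembl names, so positions are as the table gives them. Columns were grouped by their names, because the INO80 siRNA characteristic and the water sham titles sit on the same 3 samples; the uninjected columns matched sample titles. The 9 coverage columns and the gene table were not used.

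Differences were tested with limma 3.58.1 (R 4.3.3; trend, robust, two-sided) on log2(FPKM + 1), a scale that understates changes of low transcripts, in a fit of all 9 libraries. Transcripts were kept where the mean of some column group reached 1 FPKM, and loci where the sum did so in every group. Benjamini-Hochberg adjustment ran over all features tested, with a threshold of 0.05. Single values were compared by exact permutation (scipy 1.17.1). In simulated data, changes were placed only in transcripts of higher level and below-median spread. There the fit recovered every change of the larger size simulated but only a minority of those of the smaller, itself a large change. Recovery at the low level of most class j transcripts was not tested. A count of none passing therefore does not show that nothing differed. Of 7176 Ensembl IDs used as names, 2230 matched a symbol.

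Named genes were NPC2, transcripts or loci that passed, otherwise the 5 with the smallest p in a direction without overlap, up to 10 changes of dominant form a comparison, the 10 most abundant members and up to 4 per gene list; examples are described, and some named genes are not reported here. Named loci also had to carry a single gene name, a condition added to that rule. Members and lists were chosen with earlier results of these data known. Alternatives were another pseudocount, other filters, quantile normalization, length weighting, a replicate block, fits to 6 columns and leaving out each library.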

Additional observations from a re-analysis of the deposited data

How the results depend on the processing

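Comparisons are given in the order INO80 siRNA against uninjected, INO80 siRNA against water sham, water sham against uninjected. The class j transcripts that passed numbered 2, 1 and 1. Without the low-value filter they numbered 0, 0 and 0, in fits to only the 6 columns compared 0, 0 and 0, and after quantile normalization 2, 2 and 1. Leaving out single libraries gave 0 to 5, 0 to 5 and 0 to 1. Locus ratios that passed numbered 1, 0 and 0. They were 2 in the first comparison with a pseudocount of 0.1, without a filter or with FPKM times length, 0 in fits to 6 columns (3 in the third comparison), and 1 in the second with a minimum of 5 FPKM. Leaving out single libraries gave 0 to 3, 0 to 5 and 0 to 2. Replicate numbers did not pair the libraries: same-numbered libraries had correlations of deviations from -0.05 to 0.08. With the number as a replicate block, 2, 0 and 0 class j transcripts and 0, 0 and 0 ratios passed.

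Changes of dominant transcript numbered 19, 33 and 26. They numbered 4, 8 and 9 where the lead had to be at least 2 times the next form, and 5, 10 and 14 with a minimum of 5 FPKM. Leaving out single libraries gave 50 to 77, 76 to 104 and 65 to 85, since fewer libraries then had to agree. Differences in class j percent of signal kept their direction in the settings tried, but leaving out single libraries gave 0.323 to 1.43, -2.80 to -0.902 and 1.82 to 3.72, against 0.917, -2.07 and 2.99 with all, and the first was 2.23 over loci with both classes. Of 759 values of 65 named results under alternatives, 716 kept direction and side of the threshold, 31 no longer passed, 12 newly passed and 0 reversed. Most of the 759 belong to results that had not passed with the main settings and so could not be lost. All 31 that no longer passed were calls at NPC2 and ENSSSCG00000028369, so those calls were lost often. The cause was not tested. Without counts, the depth behind low FPKM is unknown.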
